A study of Homo sapiens with 6 samples.

Results

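The RNAs described here were the long intergenic non-coding RNAs, named LINC followed by a number, that were found in HEK293 cells with and without a heat shock. HEK293 is an established line of human embryonic kidney cells that carries adenovirus genes. Of the 269 entries for such names in the merged table of the study, which holds 23559 gene names and gives 1 pooled FPKM (fragments per kilobase of transcript, scaled to library size) of the authors for each group, 94 were at loci with a pooled value of at least 1 FPKM in the control or the heat shock column and 175 were below it. RNA depleted of ribosomal RNA was sequenced from 3 control samples, kept at 37°C, and 3 samples that spent 30 minutes at 45°C in a water bath. All samples came from this 1 line, with no other genotype or agent in the labels, and the heat shock was applied to an aliquot of cells in a tube during passaging. The labels do not say whether the 3 samples of a group were separate cultures, so a p-value measures only the spread between these samples, which may be technical.

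LINC names were given to transcripts that lay between protein-coding genes and seemed to hold no long reading frame. Most are spliced and carry a poly(A) tail like mRNAs, most are found at far lower levels than mRNAs, and only a few have a known role. Some were later found to encode a small protein, and these carry a new symbol. Heat shock is known to start transcription of chaperone genes through the factor HSF1 and to lower the transcription of many other genes.

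The rule used the pooled values of both groups, which are not the means of the libraries, so the values behind it are given as a description. The floor was passed in both columns by 70 of the 94 RNAs, through the heat shock column alone by 11 and through the control column alone by 13, and these last 24 had to differ between the columns. Just inside the floor were LINC00847 with pooled values of 0.766 FPKM in control and 1.00 in heat shock, LINC00598 with 1.01 and 0.878, and LINC00582 with 1.01 and 0.187. Just outside it were LINC00606 with pooled values of 0.991 and 0.820, LINC00200 with 0.984 and 0.643, and LINC00424 with 0.168 and 0.934. At 12 of the 94 RNAs the locus also carried another gene name, so that its pooled value was not that of the LINC RNA alone. Among these was LINC00338, which shared its locus with SEC14L1.

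Most of the members lay apart from coding genes and had no annotated reading frame. In the GENCODE annotation on GRCh37 (hg19, the build of the files), 70 of the 94 were in none of the classes that follow, 10 overlapped a protein-coding gene on the same strand and 7 on the opposite strand, 5 began within 5 kb downstream of one on its strand and 2 were divergent from one within 1 kb. The median RNA had 3 exons and a length of 1902.5 nucleotides, 11 had a single exon, and 10 were on chromosome 21. Of the 94 names, 24 now have another symbol, and 12 belong to genes annotated as protein-coding. These 12 were LINC00493 (SMIM26), LINC00116 (MTLN), LINC00634 (SMIM45), LINC00094 (BRD3OS), LINC00176 (C20orf204), LINC00521 (CCDC197), LINC00514 (GREP1), LINC00085 (SPACA6), LINC00675 (TMEM238L), LINC00086 (SMIM10L2A), LINC00087 (SMIM10L2B) and LINC00696. Only a complete frame, from ATG to a stop codon, of the annotation's main transcript was read. It was found for 11, all but LINC00696, with 56 to 536 residues.

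The coding sequences of LINC00493 and LINC00116 are shown because the first was the most abundant RNA of the 94 and both are short frames that the LINC name does not lead one to look for. LINC00493 encodes SMIM26, a microprotein of mitochondria, and LINC00116 encodes mitoregulin, a microprotein of the inner mitochondrial membrane. The frames have 288 bases (95 residues) and 171 bases (56 residues). They were read from GRCh37, LINC00493 from the exons within chr20:18548123-18550049 on the plus strand and LINC00116 from chr2:110969932-110970102 on the minus strand. Capitals mark the start and the stop codon.
LINC00493: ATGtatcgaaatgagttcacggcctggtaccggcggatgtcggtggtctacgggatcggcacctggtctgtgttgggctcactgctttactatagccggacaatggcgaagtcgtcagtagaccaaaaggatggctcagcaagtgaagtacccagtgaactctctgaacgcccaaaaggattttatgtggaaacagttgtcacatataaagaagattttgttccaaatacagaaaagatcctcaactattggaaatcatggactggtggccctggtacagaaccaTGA
LINC00116: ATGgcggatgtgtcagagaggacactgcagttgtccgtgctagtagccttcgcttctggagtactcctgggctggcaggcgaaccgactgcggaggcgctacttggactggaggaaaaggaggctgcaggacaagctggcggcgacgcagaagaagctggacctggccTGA

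LINC00657, better known as NORAD, is an unspliced RNA of 5343 nucleotides at chr20:34633540-34638882 on the minus strand, known to bind the Pumilio proteins, which otherwise repress mRNAs that carry their recognition element. Its transcript and those of the other members were searched for that element, and for no other binding element. The letters TGTANATA were found 15 times in the sense strand of LINC00657. Of the other 93 RNAs 7 held such an element, each 1 time. Among 5261 annotated transcripts of other genes within 1000 nucleotides of the length of LINC00657, 47.1% held at least 1 element. The median was 0, and 1 transcript held 15 or more (16). They were matched by length and not by base composition. A match is a match of letters and not a measured site. Of the 15 elements 6 are shown, each with 10 bases on either side and the element in capitals, and the coordinates are those of the element. Elements 12 and 13 lay 9 bases apart from start to start.
Element 1, chr20:34638115-34638122: ggaaggcctgTGTATATAatatgaaaaa
Element 3, chr20:34637635-34637642: aatcacatttTGTAAATAcctttttgtt
Element 5, chr20:34637425-34637432: gtgtatatagTGTACATAaaggacagac
Element 12, chr20:34635601-34635608: tactgtgctgTGTATATAgtgtatataa
Element 13, chr20:34635592-34635599: gtgtatatagTGTATATAagcggacata
Element 15, chr20:34634277-34634284: ttagcctattTGTAAATAcctttgttat

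**Figure D1:**
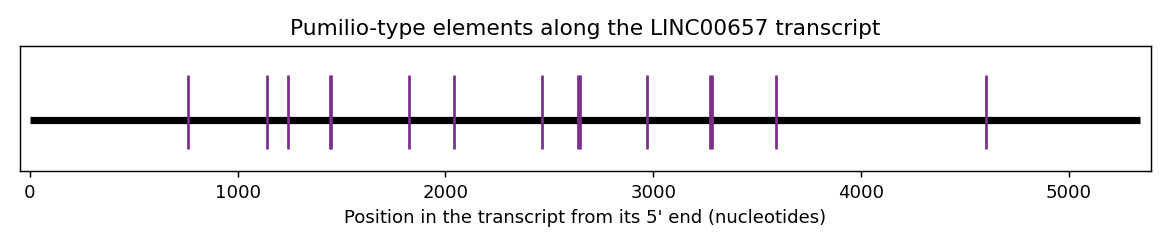
Map of the LINC00657 transcript from its 5′ end (x axis, nucleotides, to scale), with a vertical line at each of the 15 matches to TGTANATA. The elements lie between nucleotides 761 and 4599, and 3 pairs lie so close that their lines touch.

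Heat shock acts on chaperone promoters through HSF1, which binds inverted units of GAA. In the RefSeq promoters of GRCh38.p14 (250 bases before to 50 after a gene's start), 75 of the 94 RNAs were matched, and 8 of these (10.7%) held GAANNTTC or TTCNNGAA on either strand, against 13.5% of all 35116 promoters. The 8 were LINC00493, LINC00116, LINC00338, LINC00665, LINC00482, LINC00523, LINC00112 and LINC00207, with deposited log2 fold changes of both signs (0.98, 1.14, 1.96, -0.63, 0.43, -0.72, -0.37 and -1.05), and none was called.

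Before the members' values, the libraries must be described. Per library, the FPKM of a gene was summed over its annotated transcripts and the transcripts assembled by Cufflinks under the same gene. Assembled transcripts were left out in a library where their Cufflinks group also held another gene. LINC00482 was in such a group and at 0 in control replicates 1 and 2 and heat shock replicate 3. The same held for LINC00176 in control replicate 1 and heat shock replicate 3, and for LINC00162 and LINC00163 in control replicate 1. Such a 0 follows from the rule for summing and is not a measured absence. A transcript piece assembled from part of a locus adds its whole FPKM to such a sum. Control replicates 1 and 2 and heat shock replicate 3 stood apart from the other 3 libraries: they listed 141632 to 194489 single-exon transcripts without a strand, against 17304 to 45600 in control replicate 3 and heat shock replicates 1 and 2. The deposited files hold no read counts, and in such bulk samples a different number of cells that make an RNA cannot be told apart from a different amount per cell. Their coverage per FPKM put the relative depth of the libraries at 1 to 2.03. The scale of abundant genes also differed: over 983 genes above 10 FPKM in all libraries, the median ratio to the geometric mean of the libraries (the common factor, and FPKM divided by it the common scale) was 0.938, 0.434 and 0.957 in the controls against 2.13, 2.32 and 0.487 in heat-shocked libraries. DNAJB1, a co-chaperone and a textbook target of HSF1, had 7.32, 4.84 and 9.18 FPKM in the controls against 120.9, 116.2 and 34.0 in heat-shocked libraries, a log2 fold change of 3.33 (SE 0.83, limma adjusted p = 0.71), and of 2.51 (SE 0.20, adjusted p = 0.14) after division by the common factor. Its groups did not overlap, but neither value passed the threshold.

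All 94 RNAs were above 0 FPKM in at least 1 library, 75 in all 6 libraries, and the mean over the libraries was from 0.400 FPKM (LINC00439) to 99.2 FPKM (LINC00493), with a median of 1.61. The test covered 13028 genes averaging 1 FPKM or more, 70 of these RNAs included. None of the 70 was called higher after heat shock (limma, adjusted p under 0.05 and more than 2-fold) and none lower, and the calls over all genes were 2 higher (0.0154%) and 1 lower (0.00768%). The lowest adjusted p of the 70 was 0.71. At an unadjusted p under 0.05 there were 1 higher and 4 lower of 70, against 2.07% and 1.62% of all genes tested. The 1 was LINC00338, and the 4 were LINC00254, LINC00313, LINC00842 and LINC00659, of which LINC00313 and LINC00842 were picked out here by their p-values.

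The most abundant RNA was LINC00493. Its level was 71.2, 32.4 and 68.8 FPKM in the controls against 187.0, 203.5 and 32.3 in the heat-shocked libraries (values are always given in the order of replicates 1, 2 and 3). Heat shock replicates 1 and 2 were the highest of the libraries, and heat shock replicate 3 was the lowest, level with control replicate 2. The log2 fold change was 0.98 (SE 0.99, limma adjusted p = 0.71). Divided by the common factor, the values were 75.9, 74.6 and 71.9 in the controls against 87.8, 87.9 and 66.3 in heat-shocked libraries, with a log2 fold change of 0.11 (SE 0.14, adjusted p = 0.91). The coefficient of variation over all libraries was 77.1% as deposited and 11.3% on the second scale. The annotated transcript was listed at 0 in control replicate 3, where the 68.8 FPKM came from assembled transcripts of the locus. LINC00493 alone held 14.4% to 49.95% of the summed FPKM of the 94 RNAs. It had no name in the assemblies and was found by the only unnamed non-coding RefSeq transcript of its locus, chr20:18548073-18550203, where it also overlaps the coding gene ENSG00000284776 on its strand.

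LINC00116, the other short frame shown above, had 4.91, 1.95 and 7.19 FPKM in the controls against 20.3, 10.4 and 5.20 in heat-shocked libraries. Heat shock replicate 3 fell among the controls, so the groups overlapped (log2 fold change 1.14, SE 0.67, adjusted p = 0.71, and 0.41, SE 0.36, after the common factor). The annotated transcript of LINC00116 was listed above 0 only in control replicate 3 (0.395 FPKM) and heat shock replicate 2 (10.4 FPKM), and the rest came from assembled transcripts of the locus. LINC00086 (SMIM10L2A) was the third microprotein gene of the list of 6 that was a member. It stayed below the minimum, with 0.835, 0.570 and 0.662 FPKM in the controls against 0.869, 0.609 and 0.478 in heat-shocked libraries. LINC01420, LINC00998 and LINC00961, the other names of that list, were no members, and none of the 2 tested had an unadjusted p under 0.05.

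Among RNAs with a studied function, LINC00657 (NORAD) has 1 exon, and all of its FPKM came from the annotated transcript. It had read support over its full length in 6 of 6 libraries. The same share and the same support were found for LINC00641, another RNA with a studied function. LINC00657 had 5.50, 2.98 and 5.81 FPKM in the controls against 9.65, 12.5 and 2.88 in heat-shocked libraries. Heat shock replicate 3 was the lowest library and the other heat shock libraries were the highest. The log2 fold change was 0.55 (SE 0.63, adjusted p = 0.71), and on the common scale, where the libraries ran from 4.53 to 6.85 FPKM, it was -0.21 (SE 0.20, adjusted p = 0.91). The sign thus changed with the scale, the groups overlapped on both, and neither difference passed the threshold.

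LINC00152 (CYTOR), a cytoplasmic RNA known for its high level in tumours, had 7.90, 6.16 and 11.6 FPKM in the controls against 25.4, 24.8 and 4.49 in heat-shocked libraries. As for NORAD, heat shock replicate 3 was the lowest library, and the log2 fold change was 0.74 (SE 0.78, adjusted p = 0.71) as deposited and -0.09 (SE 0.24) on the common scale. LINC00263 (OLMALINC), named for the maturation of oligodendrocytes, had 7.58, 3.93 and 9.03 FPKM in the controls against 24.97, 16.9 and 6.62 in heat-shocked libraries (log2 fold change 1.02, SE 0.71, and 0.23, SE 0.26, on the common scale). LINC00173 had 4.14, 2.29 and 3.01 FPKM in the controls against 8.82, 14.4 and 2.03 in heat-shocked libraries (log2 fold change 0.92, SE 0.64, and 0.15, SE 0.27, on the common scale). In all of these RNAs heat shock replicates 1 and 2 lay above every control and heat shock replicate 3 did not. The same order held for LINC00641 and LINC00630: the former had 0.871 to 2.75 FPKM in the controls against 5.16, 7.07 and 1.39 in heat-shocked libraries, and the latter 0.655 to 2.72 in the controls against 7.20, 5.91 and 0.966 in heat-shocked libraries. LINC00467 had 0.427 to 1.55 FPKM in the controls against 2.52, 3.17 and 0.745 in heat-shocked libraries. The log2 fold changes of these 3 were 0.81, 1.06 and 0.55 as deposited and 0.17, 0.41 and 0.04 on the common scale.

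LINC00338 (SNHG20), a host gene of a small nucleolar RNA, had the highest fold change of the tested members. It had 4.19 FPKM in control replicate 1, was listed at 0 in control replicates 2 and 3, and had 9.17, 8.44 and 2.21 FPKM after heat shock. The groups overlapped, since control replicate 1 was above heat shock replicate 3. The log2 fold change was 1.96 (SE 0.69, limma unadjusted p = 0.013, adjusted p = 0.71) and 1.55 (SE 0.71, adjusted p = 0.91) on the common scale. The transcript lies within SEC14L1 on the same strand, so a library in which it is listed at 0 may have had its reads given to the longer gene, which was not tested.

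**Figure D2:**
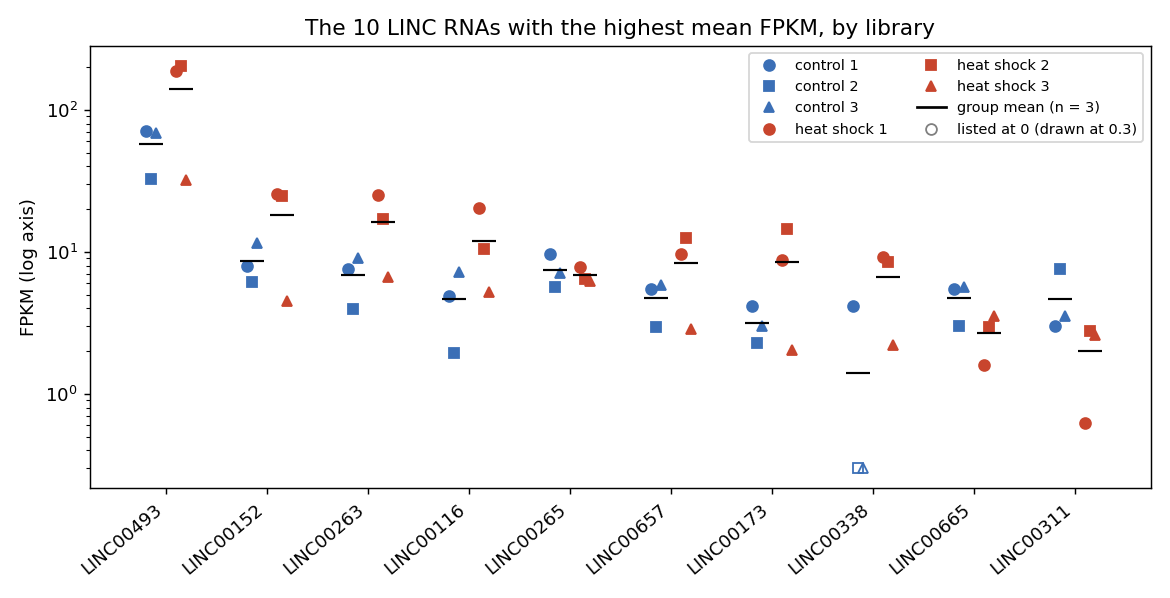
FPKM on a log axis of the 10 LINC RNAs with the highest mean, with 1 marker per library, controls in blue and heat shock in red, the marker shape giving the replicate and a line the group mean (n = 3). In 6 of the first 7 RNAs heat shock replicates 1 and 2 lie above all controls while heat shock replicate 3 does not, and LINC00265, LINC00665 and LINC00311 do not share that order.

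Of the 10 most abundant RNAs, 3 had no higher mean after heat shock. LINC00265 had 9.63, 5.66 and 7.07 FPKM in the controls against 7.83, 6.47 and 6.28 in heat-shocked libraries, a log2 fold change of -0.08 (SE 0.58). On the common scale it was -0.81 (SE 0.53, adjusted p = 0.91), and control replicates 1 and 2 and heat shock replicate 3 (10.3, 13.0 and 12.9) lay above the other libraries (2.79 to 7.39). LINC00665 had 5.48, 3.02 and 5.64 FPKM in the controls against 1.59, 2.98 and 3.54 in heat-shocked libraries (log2 fold change -0.63, SE 0.49, adjusted p = 0.71, and -1.17, SE 0.60, on the common scale). LINC00311, within GSE1 on its strand, had 3.02, 7.52 and 3.52 FPKM in the controls against 0.623, 2.75 and 2.59 in heat-shocked libraries (log2 fold change -0.94, SE 0.52, adjusted p = 0.71, and -1.45, SE 0.81, on the common scale). In LINC00311 every heat shock library lay below every control as deposited, with heat shock replicate 2 close under control replicate 1.

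Over all tested members, 0 of 70 had every heat shock library above every control and 3 of 70 had every heat shock library below, against 3.71% and 2.26% of all genes tested. Besides LINC00311 these were LINC00254 and LINC00659. LINC00254, at chr16:1928286-1934232 on the minus strand, had 3.68, 3.04 and 2.45 FPKM in the controls, was listed at 0 in heat shock replicates 1 and 2 and had 0.751 FPKM in heat shock replicate 3. Its log2 fold change was -1.74 (SE 0.47, limma unadjusted p = 0.0029, adjusted p = 0.71), and on the common scale -1.93 (SE 0.53, adjusted p = 0.91), with the groups again apart. LINC00659, at chr20:61405473-61408208 on the minus strand, had 3.82, 3.69 and 3.41 FPKM in the controls against 1.18, 1.11 and 2.03 in heat-shocked libraries. Its log2 fold change was -0.95 (SE 0.44, unadjusted p = 0.049, adjusted p = 0.71), and on the common scale heat shock replicate 3 (4.16) lay above control replicates 1 (4.08) and 3 (3.56). Of the FPKM of LINC00254, LINC00659 and LINC00311, 17.0%, 22.7% and 14.7% came from the annotated transcripts.

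The median log2 fold change of the 70 RNAs was -0.27, beside 0.45 over all 13028 genes, and 24 were above 0 and 46 below, where 73.0% of all genes were above 0. Divided by the common factor, 81 members and 13861 genes had a mean of at least 1 and the medians were -0.62 and -0.24, with 10 members above 0 and 71 below and 26.3% of all genes above and 73.7% below 0. On that scale too none of the members was called in either direction (0% of all genes in both), and at an unadjusted p under 0.05 none was higher and 1, LINC00254, was lower, against 0.678% and 2.47% of all genes. Among these 81, groups that did not overlap were found in 0 for higher and 2 for lower levels, LINC00254 and LINC00476 (picked here for that), against 1.8% and 5.25% of all genes, and LINC00852, LINC00582 and LINC00439, under the minimum, were also lower in every heat shock library. The median difference between the LINC RNAs and all genes was of the same sign on both scales. The factor of a library divides members and all genes alike, so the second scale is no separate evidence for that sign. The members also differ from other genes in level. The median mean was 1.61 FPKM over the 94, of which 24 were under 1 FPKM, against 3.73 over the tested genes, of which none were. Of the 70 tested members, 63 had a mean of 1 to 5 FPKM, with a median of 1.76. Over the 60 tested members that passed the floor in both columns the median was -0.25.

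**Figure D3:**
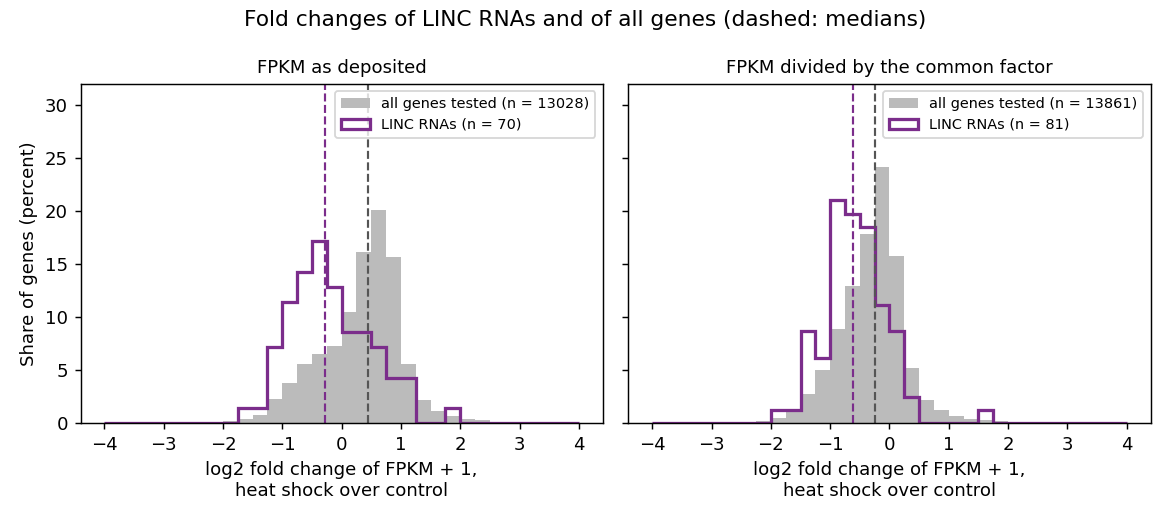
Share of genes (y axis, percent) by log2 fold change of FPKM + 1 (x axis, bins of 0.25), for all genes tested (grey) and LINC RNAs (purple line), on the deposited scale (left) and after the common factor (right), dashed lines being medians. The LINC RNAs lie to the left of all genes in both, with medians of -0.27 beside 0.45 and of -0.62 beside -0.24.

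The medians of abundant and low RNAs lay on different sides of 0. The 7 RNAs with a mean of at least 5 FPKM had a median log2 fold change of 0.92 (6 above 0 and 1 below) and the 63 with a mean of 1 to 5 FPKM one of -0.37 (18 above and 45 below). On the common scale the 7 had a median of 0.11 and 62 of the others one of -0.67. By position, the 54 tested RNAs in none of those classes had a median of -0.35, the 6 that overlapped a gene on its strand one of 0.08 and the 4 on the opposite strand one of 0.06, but on the common scale these medians were -0.62, -0.62 and -0.51. The 11 tested RNAs annotated as protein-coding had a median of -0.22, with 5 above 0 and 6 below, and on the common scale of -0.58, with 2 above and 9 below.

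Many members were high or low in the same 3 libraries, which came from both groups. In 27 of the 70 (38.6%), control replicates 1 and 2 and heat shock replicate 3, the libraries rich in strandless transcripts, all lay above the other 3, against 9.56% of all genes tested. In 9 of the 70 (12.9%) they all lay below, against 29.2% of all genes. On the common scale the counts were 50 of 81 (61.7%, beside 32.1% of all genes) and 1 of 81 (1.23%, beside 2.37%), LINC00482. The rule for summing enters these counts. LINC00482 was at 0 in all of these strandless-rich libraries, and LINC00085, also of the 9, in control replicate 1 and heat shock replicate 3. There their Cufflinks groups also held another gene, so that assembled transcripts were left out. Since that set of libraries holds 2 controls and 1 heat shock library, an RNA of the first kind tends to a negative fold change, and all 27 had one.

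Those of the first kind rested mostly on assembled pieces. Their means were 1.05 to 3.29 FPKM, with a median of 1.58, beside 1.97 for the 34 tested members of neither kind. The median share of FPKM from annotated transcripts was 10.6%, beside 29.85% for those 34. Of the 27, 1 had a transcript with read support over its full length in any library. LINC00511, an RNA studied in tumours, is 1 of them, with 2.70, 3.46 and 0.729 FPKM in the controls against 0.297, 0.080 and 2.01 in heat-shocked libraries. Its highest libraries were control replicates 1 and 2 and heat shock replicate 3. LINC00854, picked here as the most abundant of the 27, had 6.09, 5.12 and 0.706 FPKM in the controls against 0.115, 0.108 and 7.63 in heat-shocked libraries. Its heat shock libraries held both the lowest and the highest value of the 6. The 9 of the second kind had means of 1.04 to 13.4 FPKM, a median annotated share of 33.5%, and full read support in at least 1 library in 4, and included LINC00152, LINC00263, LINC00116, LINC00657 and LINC00467.

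**Figure D4:**
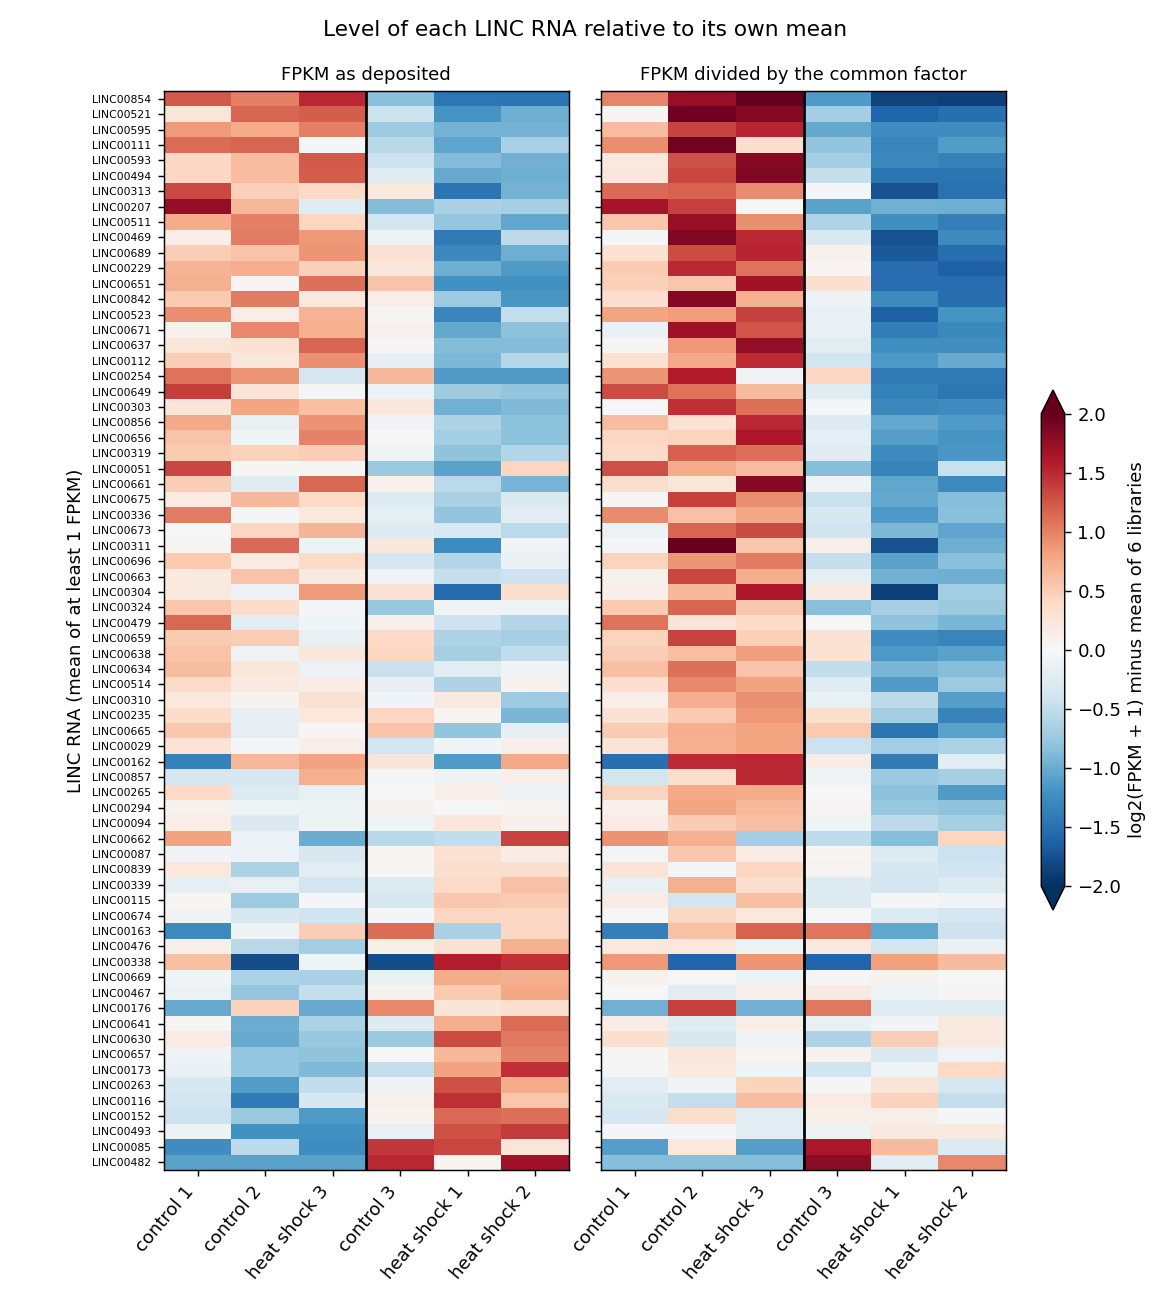
Each row is 1 of the 70 tested LINC RNAs and each column a library, with color for log2(FPKM + 1) minus the mean of the 6 libraries (red above, blue below, from -2 to 2), on the deposited scale (left) and after the common factor (right). Rows are ordered by the deposited difference between the 3 libraries left of the black line, those rich in strandless transcripts, and the 3 right of it, and many rows, those of the top and of the bottom above all, change color at that line.

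The strandless transcripts also lay within the members themselves. Between the ends of the 94 RNAs there were 302, 364 and 78 of them in the controls against 48, 73 and 289 in heat-shocked libraries. Over the whole genome there were 141632, 194489 and 45600 in the controls against 17304, 30334 and 151889. The same 3 libraries were high in both, so this is not particular to the members. Long members held many, such as LINC00673 with 75, 86 and 11 against 1, 0 and 68. LINC00669 did not share that order, with 36, 9 and 4 against 35, 43 and 3. Strandless transcripts were not part of the FPKM of a member unless Cufflinks had grouped them with it and with no other gene. Their part in the members' values was not tested. Compared within the 3 libraries rich in strandless transcripts (heat shock replicate 3 against control replicates 1 and 2), the median log2 difference of the 70 RNAs was -0.03, beside -0.20 for all genes. Within the other 3 (heat shock replicates 1 and 2 against control replicate 3) it was -0.34, beside 0.62 for all genes. In both comparisons 19 of the 70 (27.1%) were below 0 and 6 (8.57%) above 0, against 13.0% and 18.5% of all genes. LINC00254 had log2 differences of -1.31 and -1.79, LINC00659 of -0.65 and -1.04 and LINC00311 of -0.70 and -0.87, while LINC00493 had -0.56 and 1.49 and LINC00657 -0.39 and 0.81. The first 3 had to be lower within both sets, since in them every heat shock library lay below every control. The last 2 changed sign between the sets. These are differences between 1 library and 2, with no test.

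Without heat shock replicate 3, the medians were -0.41 for 65 members and 0.85 for all genes. Still none of the 65 was called, against 0.109% of all genes higher and 0.0155% lower, but 13 had an unadjusted p under 0.05 with a higher level and 20 with a lower one (40.5% and 8.5% of all genes). The lowest adjusted p was 0.070 for LINC00254, at a log2 fold change of -2.01, and LINC00493 had 1.83 at an adjusted p of 0.079. On the common scale without that library, an unadjusted p under 0.05 was found for 0 of 75 with a higher and 33 with a lower level (1.03% and 21.1% of all genes), none was called, and the median was -1.28 beside -0.42.

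LINC00662, like LINC00665 an RNA studied in tumours, had no order of the groups, with 3.43, 1.34 and 0.718 FPKM in the controls against 0.805, 5.48 and 0.276 in heat-shocked libraries (log2 fold change -0.09, SE 0.63). Of the 10 names with a studied RNA, 9 were members and were tested (LINC00473 was no member), 1 (LINC00338) had an unadjusted p under 0.05, 0 passed the adjusted threshold, and their median log2 fold change was 0.55 as deposited and -0.09 on the common scale.

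The summed FPKM of the 94 RNAs was 298.1, 207.0 and 237.9 in the controls against 375.4, 407.4 and 224.5 in heat-shocked libraries, while the FPKM of the median RNA was 2.19, 1.45 and 1.14 in the controls against 0.582, 0.776 and 1.84 in heat-shocked libraries. The sum was highest in heat shock replicates 1 and 2 and the median was lowest there. Without LINC00493 the sums were 226.9, 174.6 and 169.2 in the controls against 188.4, 203.9 and 192.2 in heat-shocked libraries. The groups overlapped both with and without it. Of the sums, 24.3% to 51.6% came from annotated transcripts. Over all 94 RNAs, tested or not, the median share of FPKM from them was 30.3%, beside 35.9% for all tested genes. With the annotated transcripts alone 16 of the 94 had a mean of at least 1 FPKM, with a median log2 fold change of 0.45 beside 0.69 for all genes. With spliced transcripts alone 38 did, with a median of -0.17 beside 0.52.

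**Figure D5:**
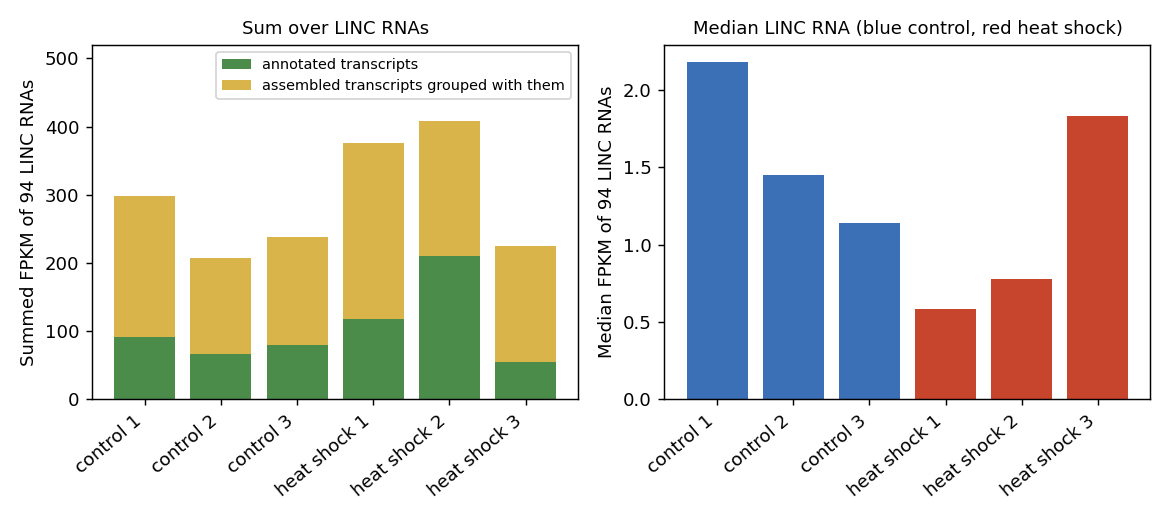
Left, summed FPKM of the 94 LINC RNAs by library, split into annotated transcripts (green) and the assembled transcripts grouped with them (yellow). Right, FPKM of the median LINC RNA by library, controls in blue and heat shock in red: the 2 libraries with the highest sums, heat shock replicates 1 and 2, have the lowest medians.

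Of the RNAs just inside the floor, LINC00582, on the strand opposite to TSNAX-DISC1, had 0.403, 0.901 and 1.09 FPKM in the controls, 0.222 in heat shock replicate 1 and was listed at 0 in heat shock replicates 2 and 3, so that every heat shock library lay below every control on both scales. LINC00847 had 2.63, 0.816 and 0.451 FPKM in the controls against 0.367, 0.445 and 0.536 in heat-shocked libraries, whereas of the authors' pooled values that for heat shock was the higher. LINC00598 had 0.952, 1.24 and 1.04 FPKM in the controls against 0.536, 0.363 and 1.03 in heat-shocked libraries. None of these 3 reached the minimum for the test on the deposited scale, and LINC00582 was chosen by a contrast in which it had to differ. On chromosome 21, 9 of the 10 RNAs were tested, with a median log2 fold change of -0.60, 2 above 0 and 7 below, and 5 of the 10 were high in the libraries rich in strandless transcripts.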

How the data were processed

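Per the labels and the study's methods, the authors used FastQC 0.10.1 and Trimmomatic 0.3.0 on the reads, TopHat2 for alignment to hg19, and Cufflinks 2.0.2 to assemble each of the 6 libraries. The deposited values are FPKM per transcript in each library, and a merged table by Cuffdiff with 1 pooled FPKM per group. Its fold change, p- and q-value columns hold the authors' comparison and were not used. The transcript attributes of the deposited files also hold coverage and other values, used for relative depth and read support alone. How libraries were scaled to each other is not given in the sources used here.

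Members were found by name in the assemblies (62), by RefSeq symbol or synonym (26) or as the only unnamed non-coding transcript of the locus (6). FPKM was summed per gene over annotated transcripts and those grouped with them, for 24173 genes. Where a Cufflinks group held more than 1 gene in a library, its assembled transcripts were left out there. Genes averaging 1 FPKM or more were fitted with limma 3.58.1 in R 4.3.3 (lmFit, eBayes with a trend) on log2(FPKM + 1), which understates changes of low genes, with Benjamini-Hochberg adjustment over all genes. The common factor is the median ratio over 983 genes above 10 FPKM in all libraries. Sequences were read with pyfaidx 0.9.0.4 from GRCh37. The fit was also run on simulated data with a spread drawn for each gene on its own. Those data do not hold the shared differences in scale between libraries, so that run cannot show how the fit deals with them. Shared reads of near-identical or overlapping genes, such as LINC00086 and LINC00087, cannot be told apart.

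The RNAs named were the 10 with the highest mean, all called, up to 8 per direction whose groups did not overlap, 3 on each side of the floor, and lists of 6 microprotein and 10 studied names. Members and lists were chosen with earlier results of these data known.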

Additional observations from a re-analysis of the deposited data

How the results depend on the processing

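No LINC RNA was called under any of the 25 other settings, and the lowest adjusted p of a member over them was 0.070. The 2 genes called higher and 1 lower over all genes became 0 and 0 with no minimum, 4 and 0 at a minimum mean of 10 FPKM, 1 and 0 with median-of-ratios size factors or with no variance trend, 0 and 0 with the common factor, 1 and 0 with annotated transcripts alone and 3 and 0 with spliced transcripts alone. They ran from 0 to 14 higher and 0 to 5 lower without single libraries. Without control replicates 1, 2 and 3 in turn there were 4, 0 and 4 higher and 2, 0 and 1 lower, and without heat shock replicates 1, 2 and 3 there were 4, 3 and 14 higher and 5, 3 and 2 lower.

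The median log2 fold change of the LINC RNAs became -0.68 at a pseudocount of 0.1, -0.98 with TPM rescaling, 0.98 over the 3 members at a minimum of 10 FPKM, 0.45 with annotated transcripts alone and 0.42 over the 24 with a pooled value of at least 5. With a term for the strandless-rich libraries it was -0.057, beside 0.21 for all genes. That of all genes became 0.82 at a minimum of 10 FPKM, 0.084 with median-of-ratios size factors, -0.24 with the common factor and -0.28 with TPM rescaling. Without single libraries the medians ran from -0.45 to -0.13 for members and from 0.22 to 0.85 for all genes. The causes were not tested.

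Combinations with the common factor were chosen after seeing the data, and gave 0 calls over all genes. With a term for the strandless-rich libraries the median of the members was -0.21 and that of all genes -0.092, and without single libraries the medians ran from -1.28 to -0.32 for members and from -0.42 to -0.12 for all genes.

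The replicate block gave 12 genes higher and 5 lower, 0 of them LINC RNAs, and together with the common factor 0 and 0 with a median of all genes of -0.24. On the deposited scale same-numbered libraries did not deviate together (correlations 0.03, -0.33 and -0.38). These deviations include the differences in scale between the libraries, so they cannot decide whether the numbers pair the samples.

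Of 400 fold changes of 17 named RNAs under other settings 371 kept their sign and 29 did not, none of them called. LINC00152 was -0.093 with the common factor, also with the block, -0.16 with the strandless term and -0.0016 with spliced transcripts alone, and LINC00657 was -0.21 with the common factor, also with the block, -0.12 with TPM rescaling and -0.17 with the strandless term. LINC00265 was 1.12 with spliced transcripts alone and LINC00665 was 0.65 with annotated transcripts alone. Without single libraries, on either scale, the values ran from -0.29 to 1.49 for LINC00152, from -0.29 to 1.10 for LINC00657, from -0.014 to 1.59 for LINC00173, from -0.067 to 0.93 for LINC00467, from -1.38 to 0.10 for LINC00265 and from -1.17 to 0.39 for LINC00662. The deposited FPKM hold no counts, so no interval for counting error can be given.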
